A study of Mus musculus with 21 samples.

Results

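The genes described here make up the acidic, protein-digesting compartment of the cell: the subunits of the vacuolar proton pump, the cathepsin proteases, legumain, the thiol reductase GILT and the 2 major lysosomal membrane glycoproteins. They were taken by symbol, as all array genes whose symbol starts with Atp6v0 or Atp6v1, the cathepsins A, B, C, D, E, F, H, K, L, O, S, W and Z, Lgmn, Ifi30, Lamp1 and Lamp2. This gave 38 genes with 54 probes among 16593 named genes, and each gene was read from its probe of highest mean log2 intensity. Of the 38, 21 encode pump subunits, 10 are cysteine cathepsins and 7 are other proteases or lysosomal proteins.

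The cells were dendritic cells cultured from the bone marrow of C57Bl6 mice that were wild type (WT), relb-/- or crel-/-relb-/-. Both mutants lack RelB, through which non-canonical NF-kB signalling acts, and crel-/-relb-/- cells lack c-Rel of the canonical pathway as well. Each genotype was profiled on 7 Illumina bead arrays: 1 of unstimulated cells at 0 h, and 1 each at 1, 8 and 24 h of CpG or of Pam3CSK4. CpG is DNA that TLR9 senses in endosomes, and Pam3CSK4 mimics a bacterial lipopeptide and is sensed at the surface by TLR2 and TLR1. The design asks how the expression program of these cells depends on both NF-kB subunits at rest and after stimulation. The labels do not give the age or sex of the mice, the culture conditions, or whether arrays came from separate animals, and no condition of 1 genotype was repeated. The p-values below therefore measure how constant a difference was over the conditions, not its spread between animals.

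Proteins taken up by a dendritic cell are cut into peptides inside endosomes and lysosomes, and the peptides are loaded there onto MHC class II molecules. The proton pump, or V-ATPase, acidifies these compartments: its cytosolic V1 sector hydrolyses ATP and turns a rotor, which drives protons through the membrane-embedded V0 sector. The low pH activates the cathepsins, most of which are cysteine proteases, while GILT reduces disulfide bonds and LAMP proteins line the membrane. Many genes of this compartment carry in their promoters an E-box that is bound by TFEB, TFE3 and related transcription factors, within a palindrome known as the CLEAR element.

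The promoter sequence was examined because it is the known common feature of lysosomal genes that the choice by symbol did not use. RefSeq promoter windows of build GRCm38.p6, each 250 bases before to 50 bases after a start site, were matched for 28 of the 38 genes, and a gene with several windows counted once. The E-box core CACGTG, a palindrome and so the same on both strands, lay in a window of 11 of these 28 genes (39.3%). It lay in 11.3% of the 8620 tested genes with a window and in 7.2% of all 32851 windows. Not all of the 28 genes were tested: those tested were 11 with the core and 14 without it. The longer core TCACGTGA, which contains CACGTG, lay in a window of 6 of the 28 genes (21.4%), against 2.0% of the tested genes and 1.0% of all windows. The NF-kB consensus, searched on both strands, lay in a window of 5 of the 28 genes (17.9%), namely Ctso, Ctsz, Ifi30, Lamp1 and Lgmn, against 12% of the tested genes and 8.5% of all windows. These are matches of letters and do not show that a factor bound there. The stretches of 7 genes with the core follow, chosen to show the core in a gene of each pump sector, in 3 proteases that are not cysteine cathepsins, in the reductase and in a membrane glycoprotein; capitals mark CACGTG, and each runs 5′ to 3′ on the strand of the gene and lies before its start site.
Lamp1, chr8:13159086-13159160, + strand: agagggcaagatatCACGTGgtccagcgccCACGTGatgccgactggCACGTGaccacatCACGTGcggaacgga
Atp6v0b, chr4:117887330-117887389, - strand: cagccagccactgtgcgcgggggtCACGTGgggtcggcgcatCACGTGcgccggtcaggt
Atp6v1a, chr16:44139365-44139414, - strand: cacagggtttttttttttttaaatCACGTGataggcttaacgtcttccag
Ctsa, chr2:164833713-164833772, + strand: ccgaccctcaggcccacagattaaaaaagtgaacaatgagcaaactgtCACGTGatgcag
Ctsd, chr7:142387898-142387957, - strand: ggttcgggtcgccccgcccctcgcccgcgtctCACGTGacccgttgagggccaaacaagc
Ifi30, chr8:70766829-70766888, - strand: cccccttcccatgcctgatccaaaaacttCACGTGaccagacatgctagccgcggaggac
Lgmn, chr12:102439113-102439172, - strand: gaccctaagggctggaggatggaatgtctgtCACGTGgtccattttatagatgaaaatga

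Lamp1 holds 4 copies of the core within 75 bases, and Atp6v0b holds 2 within 60 bases. Atp6v1a, Ctsa, Ctsd and Ifi30 carry the longer core TCACGTGA, as do Atp6v0d1 and Atp6v0e, whose stretches are not printed. For Ctsa and Lgmn the stretch comes from the 1 of their 2 windows that holds the core. The remaining genes with the core were Ctsf and Ctsl, not printed. The cathepsin genes of the widest changes, Ctsc and Ctsk, had neither core in their single window, and the 100 bases before their start sites follow for comparison.
Ctsc, chr7:88277985-88278084, + strand: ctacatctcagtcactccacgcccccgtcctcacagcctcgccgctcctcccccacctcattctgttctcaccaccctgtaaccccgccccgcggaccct
Ctsk, chr3:95499110-95499209, + strand: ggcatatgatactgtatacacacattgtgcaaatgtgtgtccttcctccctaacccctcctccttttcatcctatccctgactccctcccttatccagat

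Values are the authors' normalized intensities on a linear scale. None lay below 24.8, as in data from which background was not subtracted, so the median of all values, 47.3, was taken as the level of a dim probe. A gene was tested when the 3rd highest of its 21 values exceeded that median, which left 34 of the 38 genes among 10587 tested genes. The genes that did not pass were Atp6v0a4, Atp6v0d2, Atp6v1e2 and Atp6v1g3, isoforms known from kidney, osteoclasts or testis, with intensities from 29.7 to 48.2 on all arrays. A further 10 tested genes had a median under 2 times 47.3 and may give compressed differences: Atp6v0e2, Atp6v1b1, Atp6v1c2, Atp6v1g2, Ctsd, Ctse, Ctsf, Ctsl, Ctso and Ctsw. The other 24 tested genes were bright. They include at least 1 probe for the subunits A, B, C, D, E, F, G and H of V1 and a, c'', d and e of V0 (c'' is the product of Atp6v0b), and for the endosomal cathepsins B, C, H, K, S and Z.

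The targeted genes reached lower values where the labels say so, although the Relb ranges of WT and both mutants overlapped. Every Relb value in the mutants lay above 47.3, the median of all values. Relb lay between 148.3 and 267 in WT, between 65.9 and 152.7 in relb-/- and between 60.6 and 179.7 in crel-/-relb-/- arrays, and Rel lay between 33.6 and 45.5 in crel-/-relb-/- arrays against 61.1 to 206.5 in WT. The array of crel-/-relb-/- cells after 24 h with CpG stood apart, with a residual SD of 0.189 on the log2 scale against 0.0966 to 0.141 on the other 20. Of the dendritic cell markers, Flt3, Cd209a and Clec9a did not pass the filter, and the other 7 of 10 did. The dendritic cell marker sum, mostly from H2-Ab1, was 6992 to 9378 in WT, 5514 to 7336 in relb-/- and 5740 to 10260 in crel-/-relb-/- arrays. It was 6994 to 9080 at 0 h and 5687 to 7390 at 24 h. Neutrophil marker sums, mostly from Lcn2 and S100a8, were 1221 to 2775 at 0 h and 10800 to 25950 at 24 h. Those of eosinophil markers were 886 to 1573 and 257 to 422. The signal of a mixed culture cannot separate fewer cells of a type from less RNA per cell.

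A minority of the compartment's genes were lower in relb-/- cells, and none were higher past the threshold. Over 7 conditions, 7 of the 34 tested genes were lower in relb-/- than in WT and 0 were higher, at an adjusted p under 0.05 in limma. Over all 10587 tested genes, 11.7% were called in this comparison, 5.65% as lower and 6.03% as higher. The 7 genes were Ctsw, Ctsh, Atp6v0a1, Ctsa, Lgmn, Lamp1 and Atp6v1f. All 7 were lower in relb-/- cells in 7 of 7 conditions. The relb-/- and WT arrays did not overlap for Ctsw and Atp6v1f, which is 2 of 34 genes, where the arrays of 0.86% of all tested genes lay apart with relb-/- lower and 0.472% with relb-/- higher. The median log2 difference was -0.05 over the 34 genes and -0.01 over all tested genes.

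**Figure D1:**
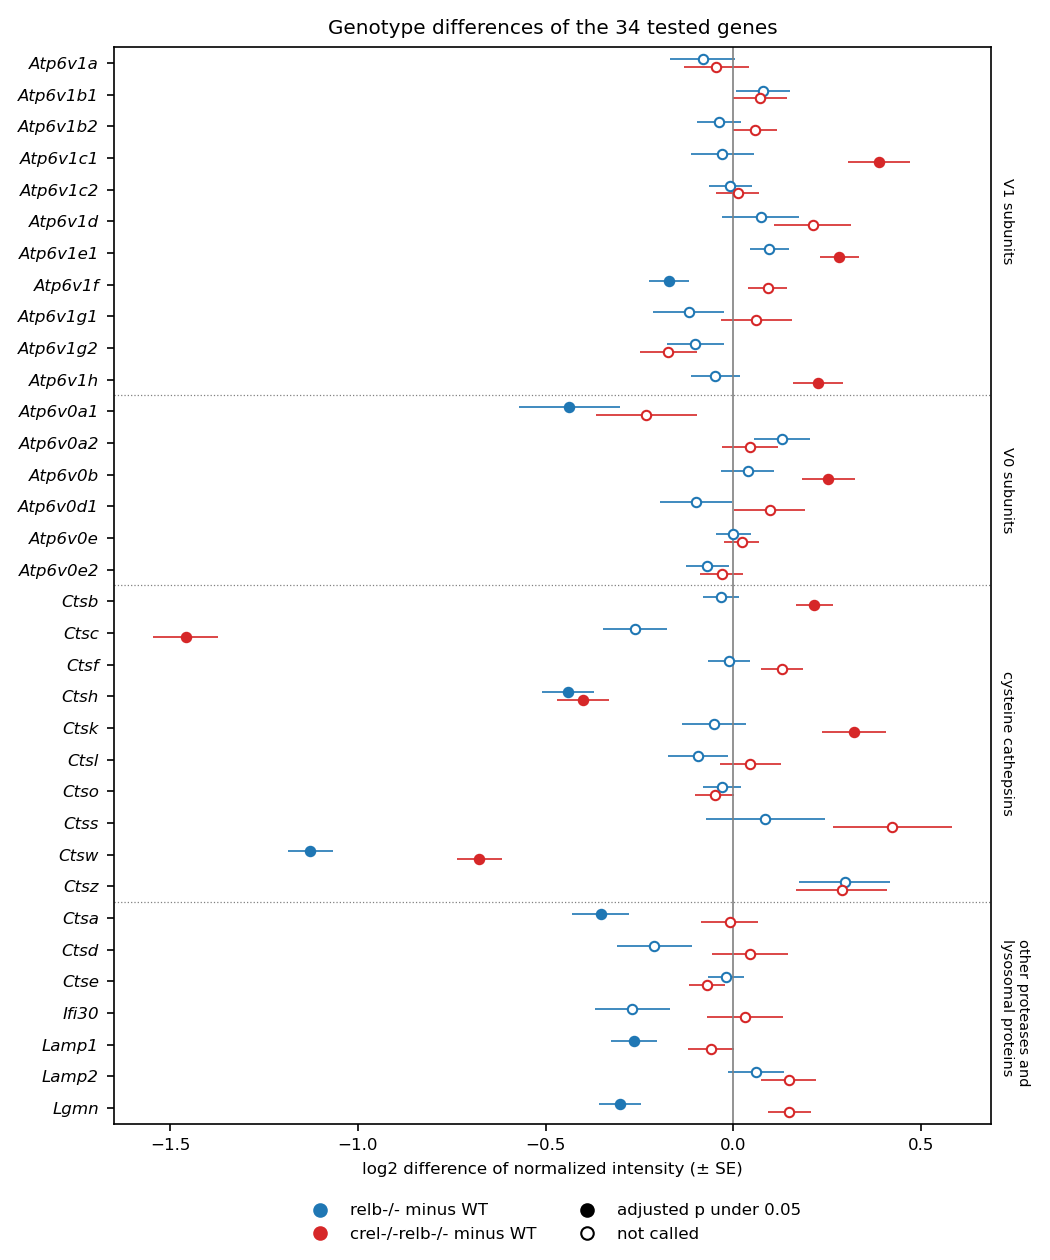
Log2 difference of normalized intensity (horizontal axis, bars ± SE of the limma fit) of the 34 tested genes in relb-/- (blue) and crel-/-relb-/- (red) against WT, with filled points for an adjusted p under 0.05. Filled blue points lie only to the left of 0, while red points are filled on both sides, with Ctsc at -1.46.

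Ctsw, a cathepsin known from cytotoxic lymphocytes, showed the widest difference of any of the 34 genes between relb-/- and WT. Its intensity was 84.8 at the lowest, 91.7 at the median and 102 at the highest in WT, 39.5, 42.6 and 46.2 in relb-/-, and 47.6, 57.0 and 70.7 in crel-/-relb-/-. The 3 genotypes did not overlap, and every relb-/- value lay below the median of all probes. It fell by 1.13 (SE 0.06) on the log2 scale in relb-/- against WT, with an adjusted p of 3.13e-10 in limma. In crel-/-relb-/- it was lower than WT by 0.68 (log2 -0.68, SE 0.06, adjusted p 1.18e-07 in limma) and higher than in relb-/- (log2 0.45, SE 0.06, adjusted p 2.06e-05 in limma).

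Markers of T and natural killer cells moved with Ctsw. The summed intensity of the 10 listed markers was 659 to 824 in WT, 437 to 500 in relb-/- and 484 to 534 in crel-/-relb-/- arrays. Of the 6 markers that passed the filter, Cd3d, Cd3e, Cd3g, Trat1 and Nkg7 were called lower in both mutants, and Klrd1 was called higher in relb-/-. Over all tested genes, 5.65% were called lower and 6.03% higher in relb-/-, and 7.74% lower in crel-/-relb-/-, each against WT. Cd3d, a chain of the T cell receptor complex, lay between 101 and 118 in WT, between 39.8 and 49.8 in relb-/- and between 49.2 and 70.7 in crel-/-relb-/- arrays. Gzma, Gzmb, Ncr1 and Cd8a did not pass the filter in any genotype. The part of these cells in the Ctsw difference was not tested.

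**Figure D2:**
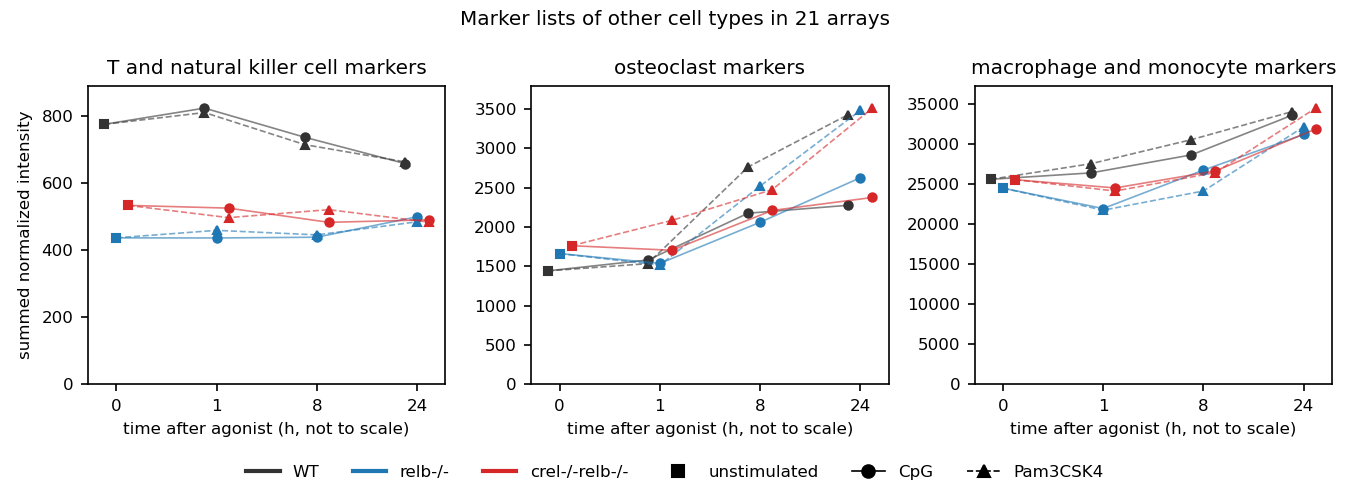
Summed normalized intensity (vertical axes) of the T and natural killer cell, osteoclast, and macrophage and monocyte marker lists on each of the 21 arrays by time after the agonist (horizontal axis, not to scale), coloured by genotype. T and natural killer cell sums lie between 659 and 824 in WT and at most at 534 in both mutants. The other sums shown are higher at 24 h than at 0 h. The osteoclast sum comes mostly from Dcstamp and Mmp9, and the macrophage and monocyte sum from Lyz2.

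Ctsh, an aminopeptidase among the cathepsins, was lower in both mutants. The WT arrays held 1173 at the lowest, 1323 at the median and 2296 at the highest, against 880, 1074 and 1470 in relb-/- and 896, 1028 and 1961 in crel-/-relb-/-. These ranges overlap because Ctsh also varied with time, but within a condition both mutants lay below WT 7 of 7 times. The log2 difference was -0.44 (SE 0.07, adjusted p 0.000238 in limma) in relb-/- and -0.40 (SE 0.07, adjusted p 0.000389 in limma) in crel-/-relb-/-. The comparisons share their WT arrays.

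Among the pump subunits, Atp6v0a1 and Atp6v1f were called in relb-/- against WT. Atp6v0a1, an isoform of the a subunit that forms part of the proton path, ranged over 1338, 1678 and 2103 (lowest, median, highest) in WT and 1048, 1256 and 1433 in relb-/- arrays. Its log2 difference was -0.44 (SE 0.13, adjusted p 0.0393 in limma), and its second probe gave -0.23 without passing. Atp6v1f, a subunit of the central shaft, was between 3963 and 4430 in WT and between 3496 and 3962 in relb-/-, without overlap and with a small log2 difference of -0.17 (SE 0.05). The other 10 tested subunits of V1 and the other 5 of V0 did not pass.

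Of the remaining proteins, the serine carboxypeptidase cathepsin A (Ctsa), legumain and Lamp1 were lower in relb-/- than in WT. Ctsa fell by 0.35 (SE 0.08), Lgmn by 0.30 (SE 0.06) and Lamp1 by 0.26 (SE 0.06) on the log2 scale. These are 3 of the 7 genes in this class, whose median difference was -0.26. The Ctsa call came from 1 of its 4 probes. Lamp2 was not called by its brightest probe (log2 0.06), while another of its 4 probes was called lower (log2 -0.43, SE 0.06), so Lamp2 is uncertain.

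In crel-/-relb-/- cells several pump subunits were higher than in WT, and cathepsin C was lower by more than any other of these genes. Against WT, 6 of 34 genes were higher and 3 were lower, where 15.4% of all tested genes were called, 7.65% higher and 7.74% lower. The 6 higher genes were the pump subunits Atp6v0b, Atp6v1c1, Atp6v1e1 and Atp6v1h and the cathepsins Ctsb and Ctsk. The 3 lower genes were Ctsc, Ctsw and Ctsh. The arrays lay apart for Ctsc and Ctsw, both lower, where those of 1.07% of all tested genes lay apart as lower and 0.623% as higher. The median over the 34 genes was 0.05 and over all tested genes 0.00 on the log2 scale.

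Ctsc encodes cathepsin C, the dipeptidyl peptidase that activates granule serine proteases of neutrophils and cytotoxic lymphocytes. Its WT intensities were 2022 at the lowest, 2681 at the median and 2735 at the highest, those of relb-/- 1832, 2074 and 2782, and those of crel-/-relb-/- 602, 1038 and 1240. All 7 crel-/-relb-/- arrays lay below all 14 arrays of the other genotypes, including the unstimulated array at 1240 against 2714 in WT and 2782 in relb-/-. The log2 difference was -1.46 (SE 0.09, adjusted p 2.24e-10 in limma) against WT and -1.20 (SE 0.09, adjusted p 3.72e-09 in limma) against relb-/-. Its other 2 probes gave -1.47 and -1.22 against WT. Without the crel-/-relb-/- array of 24 h of CpG, the difference from WT was -1.42.

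Ctsc in relb-/- against WT was not called on the brightest probe (log2 -0.26), while a second of its 3 probes was called lower (log2 -0.38, SE 0.07). At 0 h WT and relb-/- were close, at 2714 and 2782, and at 1 h with CpG they were 2735 and 2195. Of 7 neutrophil markers tested, 4 were higher and 1 was lower in crel-/-relb-/- than in WT, where 7.65% and 7.74% of all tested genes were. The T and natural killer cell sums given above were lower. The part of these cells in the Ctsc difference was not tested.

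**Figure D3:**
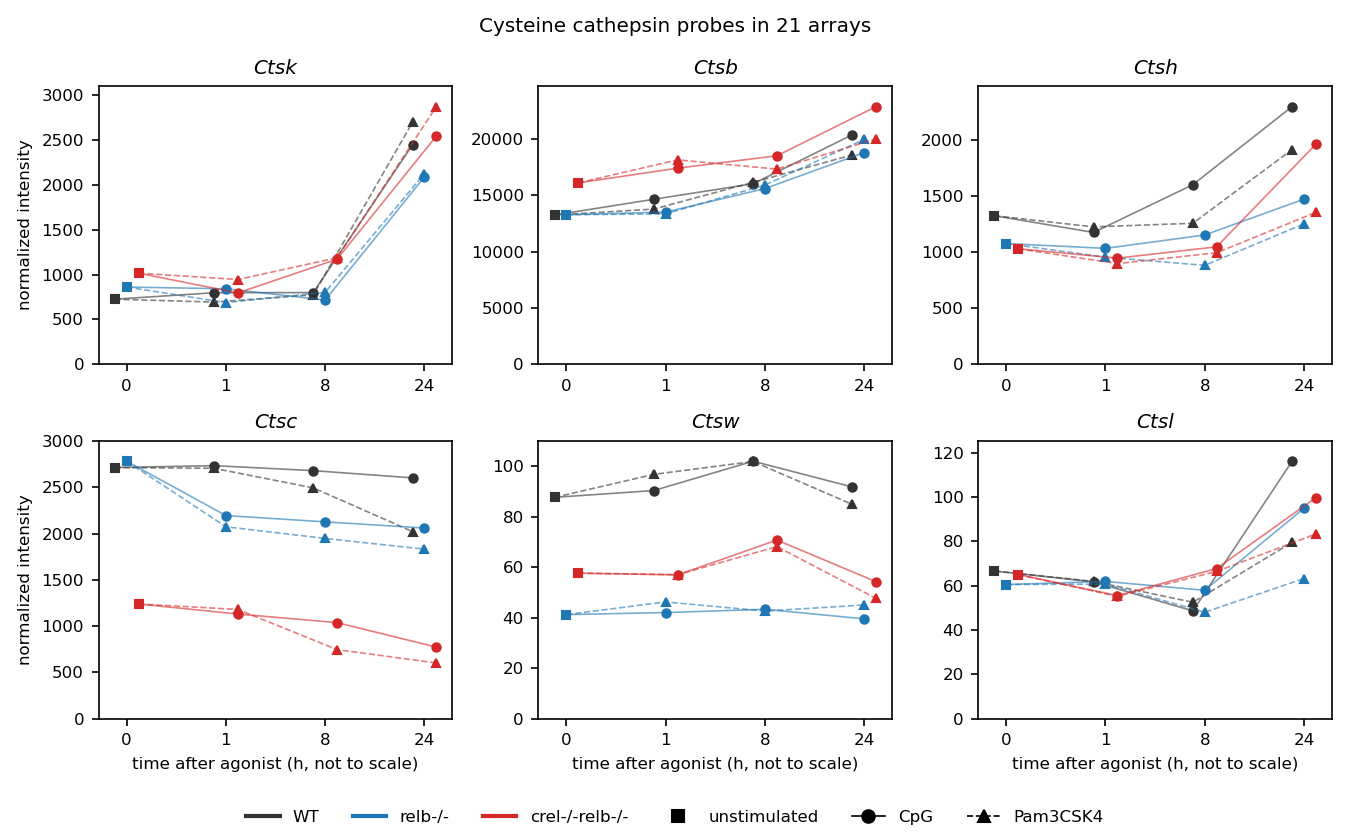
Normalized intensity (vertical axes from 0) of 6 cysteine cathepsins on each of the 21 arrays by time after the agonist (horizontal axis, not to scale; squares at 0 h are unstimulated), coloured by genotype, with circles and solid lines for CpG and triangles and dashed lines for Pam3CSK4. Ctsk stands at 2090 to 2875 at 24 h and at most at 1187 before, Ctsc is lowest in crel-/-relb-/-, and Ctsw separates the 3 genotypes; Ctsl was added after its values were seen.

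Ctsb, an endopeptidase and exopeptidase that is abundant in lysosomes, and Ctsk, the collagen-degrading cathepsin best known from osteoclasts, exceeded WT in crel-/-relb-/- cells. The median of Ctsb was 16036 over the WT arrays, 15609 over those of relb-/- and 18163 over those of crel-/-relb-/-, and the last was higher than WT in 7 of 7 conditions (log2 0.22, SE 0.05). Ctsk was higher in 6 of 7 conditions (log2 0.32, SE 0.09, adjusted p 0.0139 in limma). At 0 h it was 724 for WT, 860 for relb-/- and 1015 for crel-/-relb-/- cells.

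The pump subunits that were higher in crel-/-relb-/- belong to both sectors. Atp6v1e1 is part of the peripheral stalk, Atp6v1c1 joins the stalks to V0, Atp6v1h regulates the assembled pump, and Atp6v0b is a proteolipid of the membrane ring. Their log2 differences from WT were 0.28 (SE 0.05) for Atp6v1e1, 0.39 (SE 0.08) for Atp6v1c1, 0.23 (SE 0.07) for Atp6v1h and 0.25 (SE 0.07) for Atp6v0b. The ranges of WT and crel-/-relb-/- arrays overlapped for each of these 4 genes, and the difference had this sign in 7 of 7 conditions except for Atp6v1h, with 6 of 7.

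The array that stood apart holds the highest value of Atp6v1c1, 1123 against at most 791 elsewhere, and of Atp6v0b, 2754 against at most 2162. It also holds the lowest of Atp6v0a1, 642 against at least 1048. Without it, the number of genes higher in crel-/-relb-/- than in WT went from 6 to 9, the number lower in relb-/- from 7 to 9, and the number higher in crel-/-relb-/- than in relb-/- from 12 to 15. The cause of its distance was not tested.

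**Figure D4:**
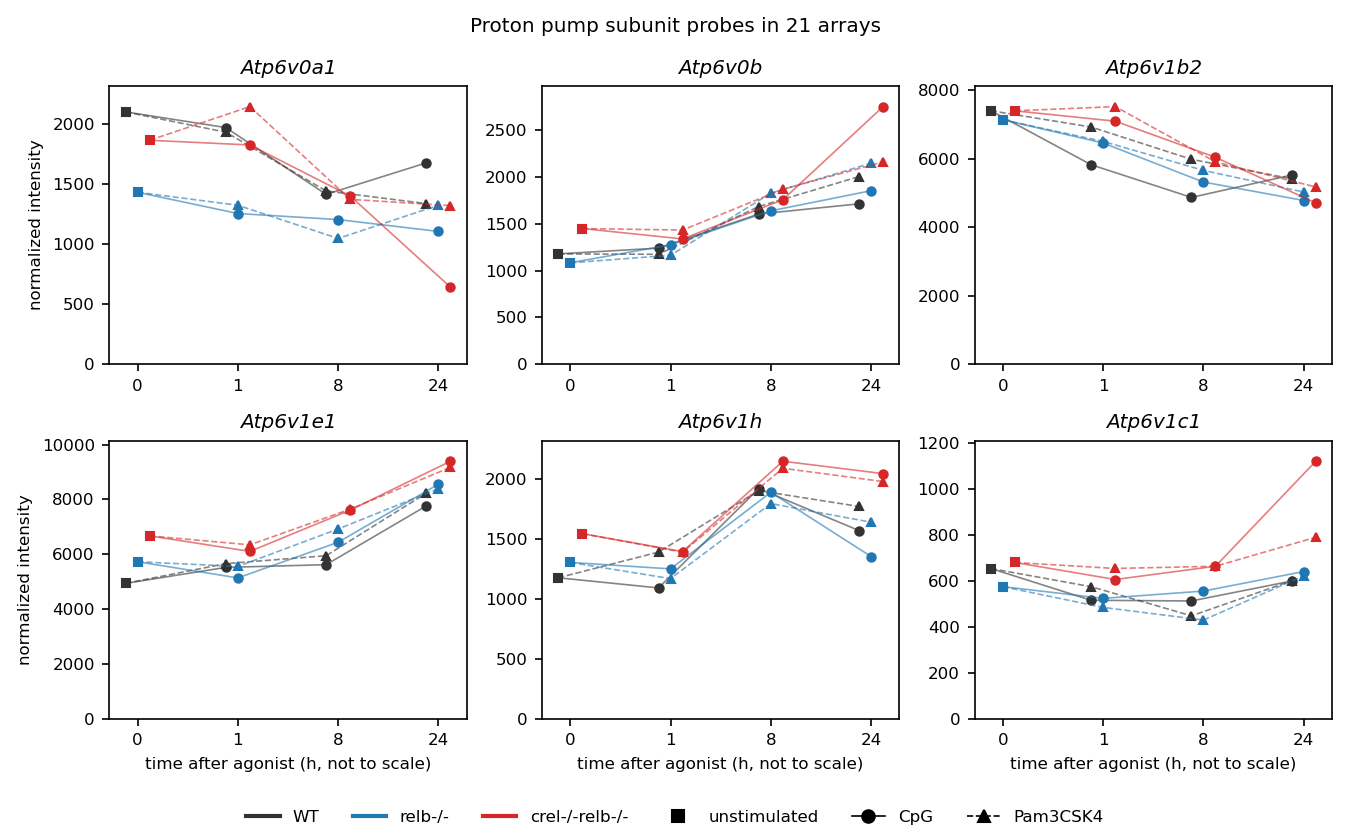
Normalized intensity (vertical axes from 0) of 6 proton pump subunits on each of the 21 arrays by time after the agonist (horizontal axis, not to scale; squares at 0 h are unstimulated), coloured by genotype, with circles and solid lines for CpG and triangles and dashed lines for Pam3CSK4. Atp6v0b and Atp6v1e1 are higher and Atp6v1b2 lower at 24 h, and 1 crel-/-relb-/- array with CpG at 24 h lies apart for Atp6v0a1 (642) and Atp6v1c1 (1123); Atp6v1c1 was added after its values were seen.

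Set directly against relb-/-, the crel-/-relb-/- cells had 12 of 34 genes higher and 1 lower, where 19.8% of all tested genes were called, 10.5% higher and 9.28% lower. This comparison shares the relb-/- arrays with the first, so the values are not independent of those above. The widest differences among the higher genes were 0.45 (SE 0.06) for Lgmn and 0.45 for Ctsw, and 0.42 (SE 0.08) for Atp6v1c1, on the log2 scale. Lgmn, the asparagine-specific endopeptidase that processes antigens and other cathepsins, had a median of 3209 over the WT arrays, 2617 over relb-/- and 4106 over crel-/-relb-/-, with overlapping ranges. The other 9 higher genes were Atp6v0b, Atp6v1e1, Atp6v1f, Atp6v1h, Ctsa, Ctsb, Ctsk, Ifi30 and Lamp1. The arrays lay apart for Atp6v1f and Ctsw as higher and for Ctsc as lower, where those of 0.869% of all tested genes lay apart as higher and 0.926% as lower. Atp6v1f was between 4155 and 4969 in crel-/-relb-/- arrays, above every relb-/- array. Lamp2 was not called by its brightest probe (log2 0.09), but its 3 other probes were called higher, with log2 differences of 0.40, 0.71 and 0.52.

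Lysosomal genes outside the symbol rule were read from lists chosen with earlier results of these data known. Of 39 tested hydrolases and membrane proteins, 7 were lower and 2 higher in relb-/-, led by Gaa (log2 -0.54), the glycogen-degrading alpha-glucosidase, and by Ids (log2 0.47) and Npc2 (log2 0.40). In crel-/-relb-/- against WT, 12 were higher and 0 lower, led by Lipa (log2 0.49), Glb1 (log2 0.46) and Slc11a1 (log2 0.42). Against relb-/-, 23 were higher and 1 lower, with Glb1 at 0.83, Gaa at 0.69 and Gusb at 0.55. Over all tested genes, 6.03% were called higher and 5.65% lower in relb-/- against WT. The shares called higher and lower were 7.65% and 7.74% in crel-/-relb-/- against WT, and 10.5% and 9.28% against relb-/-. The median of this list was -0.08, 0.17 and 0.25 in the 3 comparisons, where that of all genes was between -0.01 and 0.01.

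Endogenous inhibitors of the cathepsins were read from another list. In crel-/-relb-/- against WT, 3 of 8 tested cystatins and serpins were higher and 1 was lower. The stefin Stfa1 lay between 46.8 and 69.7 in WT and between 107.5 and 369.3 in crel-/-relb-/- arrays, and Stfa2 between 41 and 49.2 and between 54.3 and 120. Their log2 differences of 1.70 (SE 0.12) and 0.80 (SE 0.09) may be compressed, because the WT values lie near the median of all probes. The serpin Serpinb6b had a log2 difference of -1.53 (SE 0.10, adjusted p 1e-09 in limma). Stefins block cysteine cathepsins in the cytosol. Stfa1 belongs to a cluster of near-identical mouse genes whose probes may share signal. In relb-/-, 2 were higher (Stfa1 at 0.55 and Cst3 at 0.38) and 3 were lower (Serpinb6b at -0.35, Serpinb6a and Cstb). Over all tested genes, 15.4% were called in crel-/-relb-/- and 11.7% in relb-/-, each against WT.

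Partners of the pump, MiT/TFE factors and sorting genes were also read. In crel-/-relb-/- against WT, 3 of 7 tested pump partners were higher and 2 lower, with Rnasek, a pump-associated membrane protein, at 0.77 (SE 0.11), Tcirg1, the a3 isoform of the a subunit, at 0.40 (SE 0.07) and Rogdi at -0.39. Only Rnasek was called in relb-/- against WT (log2 0.43). Of 9 tested MiT/TFE factors and regulators, Mitf was lower (log2 -0.32) and Gpnmb, a known target of these factors, higher (log2 0.33) in crel-/-relb-/- than in WT. In relb-/- the called genes of this list were Rragd (log2 -0.27) and Gpnmb (log2 -0.22). Of 10 genes of mannose 6-phosphate sorting, the route by which hydrolases reach the lysosome, 3 were higher and 1 lower in crel-/-relb-/- (Igf2r at 0.36, Gga3 at -0.36, M6pr at 0.35). In relb-/-, 2 were lower, Sort1 at -0.45 and Gnptg at -0.27. Beside these counts from short lists, 15.4% of all tested genes were called in crel-/-relb-/- and 11.7% in relb-/-, each against WT.

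Unstimulated cells were profiled only at 0 h, so in every comparison of times the agonist cannot be told apart from time in culture. At 1 h none of the 34 genes differed from 0 h past the threshold in limma. Of all tested genes 1.11% were called, 0.831% as higher and 0.283% as lower. At an unadjusted p under 0.05 there was 1, Lamp2 (log2 -0.21, adjusted p 0.495), lower in 6 of 6 combinations of genotype and agent. The differences of the 34 genes at 1 h lay between -0.21 and 0.09 on the log2 scale.

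After 8 h, 5 of the 17 tested pump subunits were higher than at 0 h and 2 lower, and of the 17 other genes 1 was higher and 3 were lower; no difference between these classes was tested. Over all 34 genes, 6 were higher and 5 lower than at 0 h, where 30.9% of all tested genes were called, 15% higher and 15.9% lower, so the share of 32.4% is near the background. The arrays of the 2 times lay apart for 4 of the 34 genes as higher and 3 as lower, where those of 11.5% and 12.7% of all tested genes did. The 6 combinations of genotype and agent share the 3 unstimulated arrays and are not independent. With normexp background correction and quantile normalization, 3 were higher and 9 lower, so the balance of higher and lower genes at 8 h rests on the processing. In that setting Atp6v0e, Atp6v1e1 and Ctsb were no longer called higher, and Atp6v0a1, Atp6v1c1, Ctsa and Lamp2 were called lower. The number of lower genes was 8 without the crel-/-relb-/- array of 24 h of CpG. It was 3, without Atp6v1g1 and Ctsc, when the unstimulated relb-/- array, the relb-/- array at 8 h with CpG or the crel-/-relb-/- array at 8 h with Pam3CSK4 was left out.

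Atp6v1h, the H subunit, was higher at 8 h. Its 3 unstimulated arrays held 1176 for WT, 1304 for relb-/- and 1545 for crel-/-relb-/- cells, and the 6 arrays at 8 h held 1796 at the lowest, 1912 at the median and 2150 at the highest. The groups did not overlap, and the log2 difference was 0.55 (SE 0.09, adjusted p 4.17e-05 in limma). At 24 h the values were 1354, 1706 and 2046, overlapping the unstimulated arrays, with a log2 difference of 0.36 (SE 0.09).

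Atp6v0b and Atp6v1e1 were higher at 8 h and higher again at 24 h. Atp6v0b was 1178 for WT, 1083 for relb-/- and 1450 for crel-/-relb-/- unstimulated cells, 1605 to 1870 over the 6 arrays at 8 h and 1714 to 2754 at 24 h. Its log2 difference from 0 h was 0.49 (SE 0.09) at 8 h and 0.76 (SE 0.09, adjusted p 1.64e-06 in limma) at 24 h. Atp6v1e1 was 4939, 5728 and 6672 in the same 3 unstimulated arrays and 7768 to 9397 at 24 h, without overlap. It differed by 0.21 (SE 0.07) at 8 h, a call lost with normexp and quantile normalization, and by 0.58 (SE 0.07, adjusted p 9.11e-07 in limma) at 24 h.

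Atp6v1b2, the widely expressed B subunit that borders the ATP site, went the other way. It was 7406 for WT, 7141 for relb-/- and 7404 for crel-/-relb-/- unstimulated cells, 4872 to 6044 at 8 h and 4713 to 5526 at 24 h. Neither time overlapped 0 h. The log2 difference was -0.38 (SE 0.08) at 8 h and -0.52 (SE 0.08, adjusted p 1.81e-05 in limma) at 24 h.

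Ifi30, the GILT reductase that opens disulfide bonds of antigens, was lower at 8 h. Its unstimulated arrays held 871 for WT, 629 for relb-/- and 653 for crel-/-relb-/- cells, and the 6 arrays at 8 h held 364 at the lowest, 510 at the median and 583 at the highest. The log2 difference was -0.55 (SE 0.13, adjusted p 0.00282 in limma), and the second probe did not pass. At 24 h the values spread from 409 to 748 and overlapped 0 h, and no call was made.

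**Figure D5:**
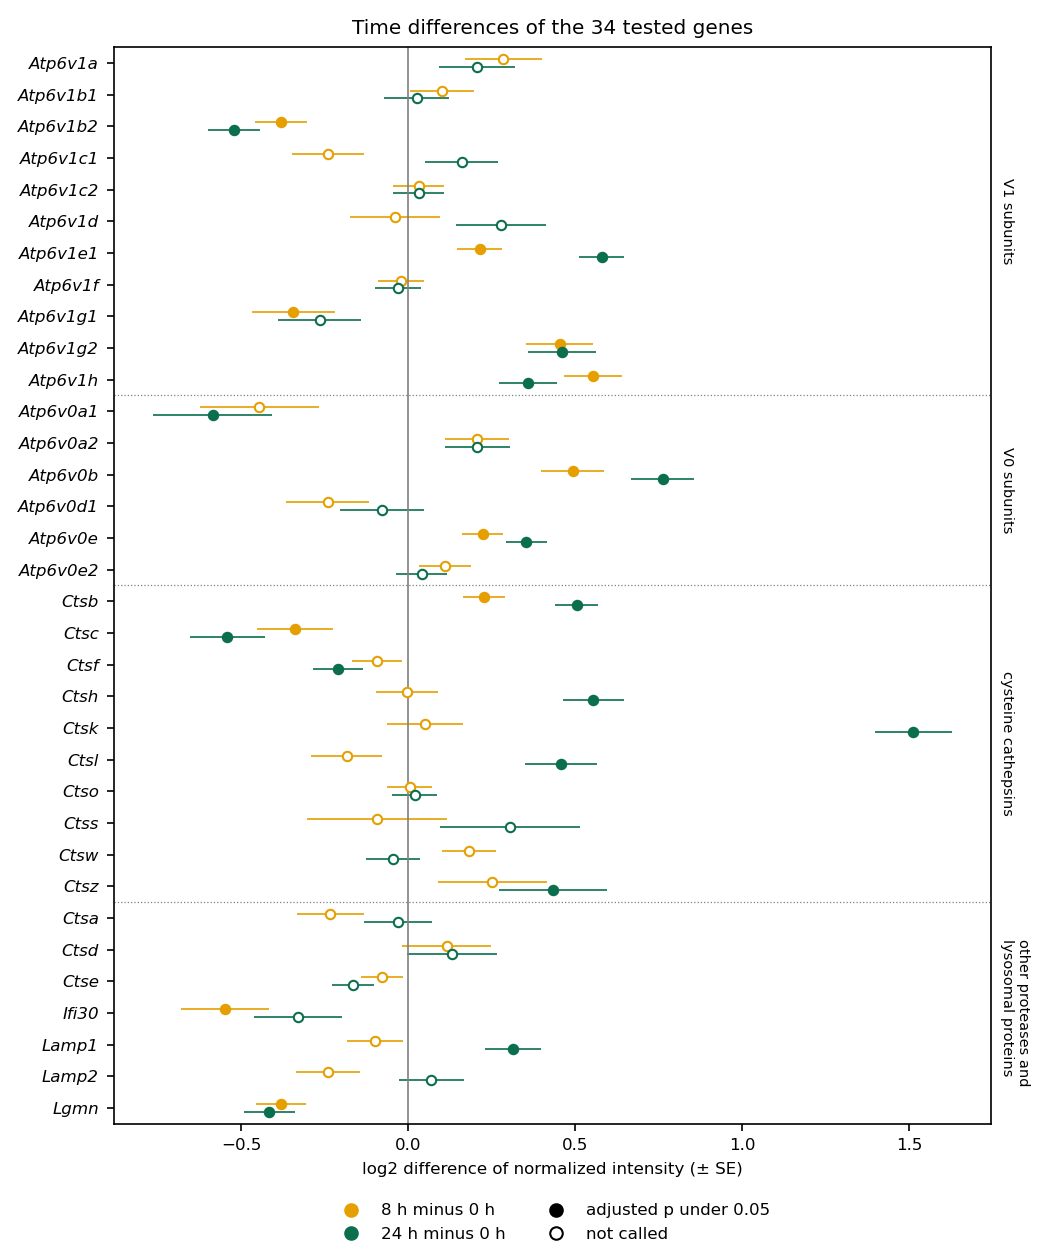
Log2 difference of normalized intensity (horizontal axis, bars ± SE of the limma fit) of the 34 tested genes at 8 h (orange) and 24 h (green) against 0 h, with filled points for an adjusted p under 0.05. The widest point is Ctsk at 24 h (1.51), and Atp6v1b2, Ctsc and Lgmn lie left of 0 at both times.

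By 24 h, 5 of the 10 cysteine cathepsins were higher and 2 lower than at 0 h, with a median of 0.37 on the log2 scale. Over the 34 genes 11 were higher and 5 lower, a share of 47.1% where 31.9% of all tested genes were called, 16.9% higher and 15% lower. The arrays of the 2 times lay apart for 6 genes as higher and 2 as lower, where those of 10.9% and 10.1% of all tested genes did. The 11 higher genes were Ctsk, Atp6v0b, Atp6v1e1, Ctsh, Ctsb, Atp6v1g2, Ctsl, Ctsz, Atp6v1h, Atp6v0e and Lamp1, and the 5 lower ones were Atp6v0a1, Ctsc, Atp6v1b2, Lgmn and Ctsf. With normexp background correction and quantile normalization, 8 were higher and 7 lower. Without the crel-/-relb-/- array of 24 h of CpG, 13 were higher and 6 lower, and without the unstimulated WT array 3 were lower, with Atp6v0a1 and Ctsf no longer called.

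Ctsk had the widest difference of the 34 genes. Its unstimulated arrays held 724 for WT, 860 for relb-/- and 1015 for crel-/-relb-/- cells, and it lay between 686 and 944 at 1 h and between 716 and 1187 at 8 h. At 24 h it was 2448 with CpG and 2700 with Pam3CSK4 in WT, 2090 and 2127 in relb-/-, and 2547 and 2875 in crel-/-relb-/-. All 6 arrays at 24 h lay above all 15 earlier ones, with both agents and in each genotype. The log2 difference from 0 h was 1.51 (SE 0.11, adjusted p 1.05e-09 in limma), a 2.85-fold rise, while that at 8 h was not called.

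Markers of osteoclasts, the cells from which Ctsk is best known, and of macrophages were read beside it. The summed intensity of the 8 osteoclast markers was 1444 to 1764 at 0 h and 2278 to 3513 at 24 h. Most of this sum came from Dcstamp (791 to 1800 on all arrays) and Mmp9 (97.3 to 1922). Of the 7 osteoclast markers that passed the filter, 1 was higher at 24 h (Mmp9, log2 3.19) and 1 lower (Ocstamp, log2 -0.99), and Itgb3 did not pass. Acp5 and Calcr, markers of osteoclasts, lay between 38.8 and 56.7 and between 39.5 and 50.3 on all arrays, around the median of all probes. Atp6v0d2, the pump isoform of osteoclasts, lay between 38.9 and 48.2 on all arrays. Of 10 tested macrophage and monocyte markers, 5 were higher at 24 h, with Adgre1 at 2.20 and Cd14 at 1.79, and 1 was lower, Mrc1 at -2.54. The summed level of that list, mostly from Lyz2 (18207 to 25966 on all arrays), was 24520 to 25630 at 0 h and 31230 to 34520 at 24 h. Beside the counts of both lists, 16.9% of all tested genes were called higher and 15% lower at 24 h. The part of these cells in the Ctsk difference was not tested.

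Ctsb and Ctsh also rose by 24 h. Ctsb was 13255 for WT, 13282 for relb-/- and 16116 for crel-/-relb-/- unstimulated cells and 18607 to 22901 over the 6 arrays at 24 h, without overlap (log2 0.50, SE 0.06, adjusted p 2.57e-06 in limma). Ctsh was 1323, 1074 and 1028 in the same unstimulated arrays. At 24 h with CpG it was 2296 for WT, 1470 for relb-/- and 1961 for crel-/-relb-/-, and with Pam3CSK4 1912, 1250 and 1353. Each value at 24 h exceeded the unstimulated value of its own genotype (log2 0.55, SE 0.09, adjusted p 6.78e-05 in limma), while the ranges over genotypes overlapped.

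Ctsc, Atp6v0a1 and Lgmn were lower at 24 h. Ctsc at 24 h with Pam3CSK4 was 2022 for WT, 1832 for relb-/- and 602 for crel-/-relb-/-, and with CpG 2602, 2060 and 774, each below the unstimulated value of its genotype (log2 -0.54, SE 0.11). Atp6v0a1 had a log2 difference of -0.58 (SE 0.18, adjusted p 0.0153 in limma), and its second probe gave -0.72. It became -0.375 without the crel-/-relb-/- array with CpG, and it no longer passed without the unstimulated array of WT (adjusted p 0.0591 in limma) or of crel-/-relb-/- (adjusted p 0.0731 in limma). Lgmn was 4092 for WT, 3441 for relb-/- and 4176 for crel-/-relb-/- unstimulated cells and had a median of 2828 at 24 h (log2 -0.42, SE 0.07).

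A comparison of 24 h with 8 h was added after the values had been seen. It called 10 of 34 genes higher and 1 lower, where 22.2% of all tested genes were called, 12.5% higher and 9.74% lower. The arrays of the 2 times lay apart for Ctsk, Ctsb and Atp6v1e1 as higher and for none as lower, where those of 3.82% and 1.97% of all tested genes did. Ctsk differed by 1.46 (SE 0.09), Ctsl by 0.64 (SE 0.09) and Ctsh by 0.56 (SE 0.07) on the log2 scale, each higher in 6 of 6 combinations of genotype and agent. Ctsl, an endopeptidase known for processing the invariant chain, lay between 48.0 and 67.7 at 8 h and between 63.2 and 116 at 24 h, so its difference is measured on a dim probe. Lamp1 (log2 0.41), Atp6v1c1 (0.40), Atp6v1e1 (0.36), Atp6v1d (0.32), Lamp2 (0.31), Ctsb (0.28) and Atp6v0b (0.27) were the other higher genes, and Ctsw (log2 -0.23) was the lower one. With normexp background correction and quantile normalization 7 were higher and 4 lower, and 11 were higher and 2 lower without the crel-/-relb-/- array of 24 h of CpG. The number lower was also 2 without the WT array at 24 h with CpG. The Ctsw call was lost when the crel-/-relb-/- array of 8 h of CpG, at 8 h with Pam3CSK4 or at 24 h with Pam3CSK4 was left out.

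Other lysosomal genes changed in both directions with time. Of the 39 hydrolases and membrane proteins, 3 were higher and 12 lower at 8 h, and 16 were higher and 5 lower at 24 h. That is 38.5% and 53.8% of the list called, beside 30.9% and 31.9% of all tested genes. Slc11a1, the phagosomal metal transporter NRAMP1, was higher by 2.24 (SE 0.10) at 8 h and 3.35 (SE 0.10) at 24 h. The acid lipase gene Lipa was higher by 1.58 (SE 0.21) and 1.51 (SE 0.21). The phospholipase Pla2g15 was lower at both times (log2 -1.55 and -1.31), as was the thioesterase gene Ppt1 at 24 h (log2 -1.38).

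Of the 8 inhibitors, 5 were higher and 0 lower at both 8 and 24 h. Serpinb6b was at 0.92 and 1.09, Cstb, the stefin B gene, was at 0.53 and 0.78, and Cst7, encoding cystatin F, was called at 24 h with 0.79. Of 7 pump partners, 2 were higher and 1 lower at 8 h and 3 higher and 1 lower at 24 h, with Tcirg1 at 0.54 and 0.83 and Ccdc115, a pump assembly factor, at -0.56 and -0.53. Among MiT/TFE genes Tfec was lower by 0.91 (log2 -0.91, SE 0.12) at 8 h and by 1.31 (log2 -1.31, SE 0.12) at 24 h. In the whole list 1 was higher and 3 were lower at 8 h, and 3 were higher and 1 lower at 24 h. Of the 10 sorting genes, 5 were higher and 1 lower at 8 h and 6 higher and 0 lower at 24 h, with Sort1 at 1.01 (SE 0.14) at 24 h. The shares called at 8 and 24 h were 62.5% at both times for the inhibitors, 42.9% and 57.1% for the partners, 44.4% at both times for the MiT/TFE genes and 60% at both times for the sorting genes, beside 30.9% and 31.9% of all tested genes. These lists hold 7 to 10 tested genes each. None of the genes in these 5 lists was called at 1 h or between the agents.

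No gene of the compartment passed the threshold between the agents. Of the 34, 0 were called between CpG and Pam3CSK4 in limma, where 2.26% of all tested genes were called, 0.916% as higher with CpG and 1.34% as lower, and 4 had an unadjusted p under 0.05. These were Ctsh (log2 0.22, SE 0.06, adjusted p 0.0677), Lgmn (log2 0.17, adjusted p 0.0922), Ctsl (log2 0.18, adjusted p 0.249) and Ctsc (log2 0.18, adjusted p 0.275), each higher with CpG, in 8, 8, 7 and 8 of 9 combinations of genotype and time. Ctsh passed when the relb-/- array at 24 h with CpG was left out. The differences of all 34 genes lay between -0.15 and 0.22, and values that miss the threshold do not show that the agents act alike.

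Whether the change from early (0 and 1 h) to late (8 and 24 h) times depended on genotype was tested as an interaction. The test takes both late times together, so a genotype difference at 24 h alone is averaged with 8 h. None of the 34 genes was called in relb-/- against WT or in crel-/-relb-/- against WT, where 0.17% and 0.378% of all tested genes were called. In the first, 0.113% were called higher and 0.0567% lower, and in the second 0.161% and 0.217%. Values that miss the threshold do not show that the genotypes changed alike. At an unadjusted p under 0.05 there were 2 and 5. The 2 for relb-/- were Atp6v1g2 (log2 0.29) and Ctsh (log2 -0.28). The 5 for crel-/-relb-/- were Ctsc (log2 -0.45, SE 0.14, adjusted p 0.223 in limma), Lamp1 (log2 0.32, SE 0.10, adjusted p 0.261 in limma), Atp6v1c1 (log2 0.40), Ctss (log2 -0.68, SE 0.28) and Lgmn (log2 0.23). Ctss is the cathepsin that completes invariant chain removal in dendritic cells. It was between 995 and 2392 in WT and between 1523 and 2691 in crel-/-relb-/- arrays. With all arrays, Ctss was called in none of the 10 comparisons. In crel-/-relb-/- against WT it was lower at 24 h with CpG (log2 -0.651), on the array that stood apart. In the other conditions it was higher, by 0.205 to 1.273 on the log2 scale.

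The genes with the E-box core were set beside those without it as a description. Of the 11 with the core, all tested, 3 were lower and 0 higher in relb-/- against WT, 1 was higher and 0 lower in crel-/-relb-/- against WT, 5 were higher and 0 lower in crel-/-relb-/- against relb-/-, 2 were higher and 2 lower at 8 h, and 4 were higher and 2 lower at 24 h. Of the 14 tested genes with a window but no core, the counts in the same order were 2 lower and 0 higher, 2 higher and 1 lower, 3 higher and 1 lower, 2 higher and 1 lower, and 4 higher and 2 lower. The median log2 difference between crel-/-relb-/- and relb-/- was 0.20 with the core and 0.06 without it. Over all tested genes, 11.7%, 15.4%, 19.8%, 30.9% and 31.9% were called in these 5 comparisons. The tested genes Atp6v0a2, Atp6v1b2, Atp6v1c1, Atp6v1g1, Atp6v1h, Ctsb, Ctse, Ctsh and Ctsw had no window and are in neither set, although several of them were called above. No difference between these sets was tested.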

How the data were processed

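Expression was measured on 21 arrays, 1 for each of 3 genotypes in 7 conditions. The values are normalized intensities of 25697 probes, deposited by the authors on a linear scale, with array medians between 47.1 and 47.4. Neither labels nor file headers name the normalization. A second deposited table was not used, because its 21 value columns match no sample's labels. In the platform's annotation, 23978 probes had 1 symbol, 0 had more than 1 and 1719 had no entry, and 23962 symbols were updated by Entrez identifier through RefSeq (GRCm38.p6).

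Log2 intensities were fitted in limma 3.58.1 (R 4.3.3; lmFit, eBayes with intensity trend), as genotype plus condition on all arrays (12 residual degrees of freedom), or with a term for late time by genotype (10). Tests were two-sided, adjusted by Benjamini-Hochberg over 10587 genes and called under 0.05. There were 10 comparisons, of which 24 h against 8 h was added after seeing the data. The number of arrays limits the precision. Values on the arrays are given for members called with a log2 difference of at least 0.5, and of each other list up to 3 called genes of widest difference per comparison. Members and lists were chosen with earlier results of these data known. No 2 arrays were identical. The fit was tested on simulated data. Alternatives were no filter, cyclic loess, normexp (offset 50) with quantile normalization, an offset of 16 before log2, no trend, the mean of all probes, and leaving out each array, including the 1 that stood apart. Cyclic loess, normexp and quantile normalization were applied to the authors' normalized values, not to raw intensities.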

Additional observations from a re-analysis of the deposited data

How the results depend on the processing

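Counts of genes called kept within 1.5 times the reported count in 132 of 140 recomputations under 7 alternative settings and in 409 of 420 that left out 1 array, and no direction reversed for a gene with a log2 difference of at least 0.5. The exceptions follow. With the mean of all probes, 1 gene, Ctsz, was higher in relb-/- than in WT. With normexp and quantile normalization, 3 genes were higher and 9 lower at 8 h, and 4 were lower at 24 h against 8 h. Without the crel-/-relb-/- array of 24 h of CpG, 8 were lower at 8 h and 2 at 24 h against 8 h, and that last count was also 2 with cyclic loess and with no intensity trend; the alternatives for 24 h against 8 h were chosen after seeing the data. Leaving out each array in turn gave 3 to 8 lower genes at 8 h, 3 to 7 at 24 h and 0 to 2 at 24 h against 8 h, and 0 to 1 higher with CpG than with Pam3CSK4. It gave 5 to 9 lower in relb-/-, 5 to 9 higher in crel-/-relb-/- and 10 to 15 higher against relb-/-. Of the called genes with a log2 difference of at least 0.5, Atp6v0a1 at 24 h lost its call in 2 of these recomputations (log2 -0.57 and -0.54). Among smaller differences, calls lost in the lowest counts were those of Atp6v1g1 and Ctsc at 8 h, Ctsf at 24 h and Ctsw at 24 h against 8 h. The cause of these shifts was not tested. Dim probes limit Ctsw, Ctsl and Ctsd, and no condition was repeated.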
